A study of Mus musculus with 45 samples.

Results

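Angiopoietins and vascular endothelial growth factors (VEGFs) were described here through 10 genes, of 54838 genes counted in the whole series, in 15 *PyMT*+ mouse mammary cancer cell lines. The set held the angiopoietin ligands *Angpt1* and *Angpt2* and their receptor *Tek*, the VEGF family ligands *Vegfa*, *Vegfb*, *Vegfc*, *Vegfd* and *Pgf*, and the angiopoietin-like genes *Angptl2* and *Angptl4*. The genes were chosen by name, because *Angpt1* was far higher in lines derived from the parental line YEJG than in lines derived from the parental line YEJH. Values of YEJG-derived against YEJH-derived lines therefore describe how the set was chosen and are given with no test.

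The lines express the polyoma virus middle T oncogene (*PyMT*), and RNA was taken from plated cultures of each line. Both parental lines, YEJH and YEJG, carry the label of a primary mammary gland tumour. Their derivatives came from tumours that grew after transplantation into the mammary fat pad (FP lines) or, after the tumour was resected, from the lung (M lines). YEJH gave 5 fat-pad and 5 lung lines, and YEJG gave 1 fat-pad line (YEJG-FP) and 2 lung lines (YEJG-M1 and YEJG-M2). No treatment was given to any line, and each parental line was 1 line, so the parental comparisons and the YEJG comparisons rest on single lines on at least one side. The lung lines were labelled as whole lung except YEJH-M3, which was labelled as lung metastases.

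Each line was sequenced in 3 technical repeats, giving 45 libraries with 9723860 to 16943900 reads on genes. The line was the unit of replication, and p-values measure the spread between lines of 1 or 2 parental cell populations. By the prefix of their library names the libraries fell into 2 sets, called here library runs A (22 libraries) and B (23 libraries). The labels do not name a run, so what the sets stand for is not known. No member passed a test between them (log2 differences of -0.02 to 0.29). The library of YEJG-M1 repeat 1 bears a library name that gives line YEJH-M1, and it was placed by its title. Values without it are given beside those with it or together after the comparisons. A set of 12 mammary epithelial genes summed to 8152 to 10796 CPM (reads scaled to a fixed library size) in the YEJH-derived lines, against 4.59 to 7.85 CPM for 10 endothelial genes. In YEJG-FP the epithelial sum was 6840 CPM and that of 8 mesenchymal transition genes 1597 CPM. In the YEJG lung lines the epithelial sum, 3753 to 3826 CPM, was below the mesenchymal sum, 4124 to 5204 CPM. That mesenchymal sum came largely from *Vim*, so the order of the sums does not name the lines. The markers of these lines do not give an epithelial name alone.

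Angiopoietins are secreted ligands of TEK (TIE2), a receptor tyrosine kinase found chiefly on endothelial cells. ANGPT1 activates TEK and steadies mature vessels, whereas ANGPT2 opposes or replaces it depending on context. VEGFA drives endothelial growth through its receptors KDR and FLT1, VEGFB and placental growth factor (*Pgf*) bind FLT1, and VEGFC and VEGFD act mainly on lymphatic endothelium through FLT4. Tumour cells and the stroma around them can secrete these ligands, while the vessels that answer them are not part of a cancer cell line.

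Expression differed widely across the set. Per exon length, in RPKM (CPM per kilobase of exon), *Angptl2*, which encodes a secreted protein linked to inflammation, was highest with a mean level of 36.7 RPKM over the 15 lines. *Vegfa* followed at 13.2 RPKM, *Angptl4* at 11.7 RPKM, *Vegfc* at 6.36 RPKM and *Vegfb* at 2.09 RPKM. *Pgf* averaged 0.929 RPKM, *Angpt1* 0.777 RPKM and *Vegfd* 0.239 RPKM, and the averages of *Angpt1* and *Vegfd* were carried by the YEJG-derived lines. *Angpt2* and *Tek* were near the detection limit at 0.0287 and 0.00241 RPKM. A gene entered the fit when its reads averaged at least 10 per line, and 8 of the 10 members met this. *Vegfd* met it only through the YEJG-derived lines, where it was high, since its reads averaged 2.75 per line without them. Its values are therefore given with no test, and 7 members were tested. *Angpt2* and *Tek* are given by their reads.

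**Figure D1:**
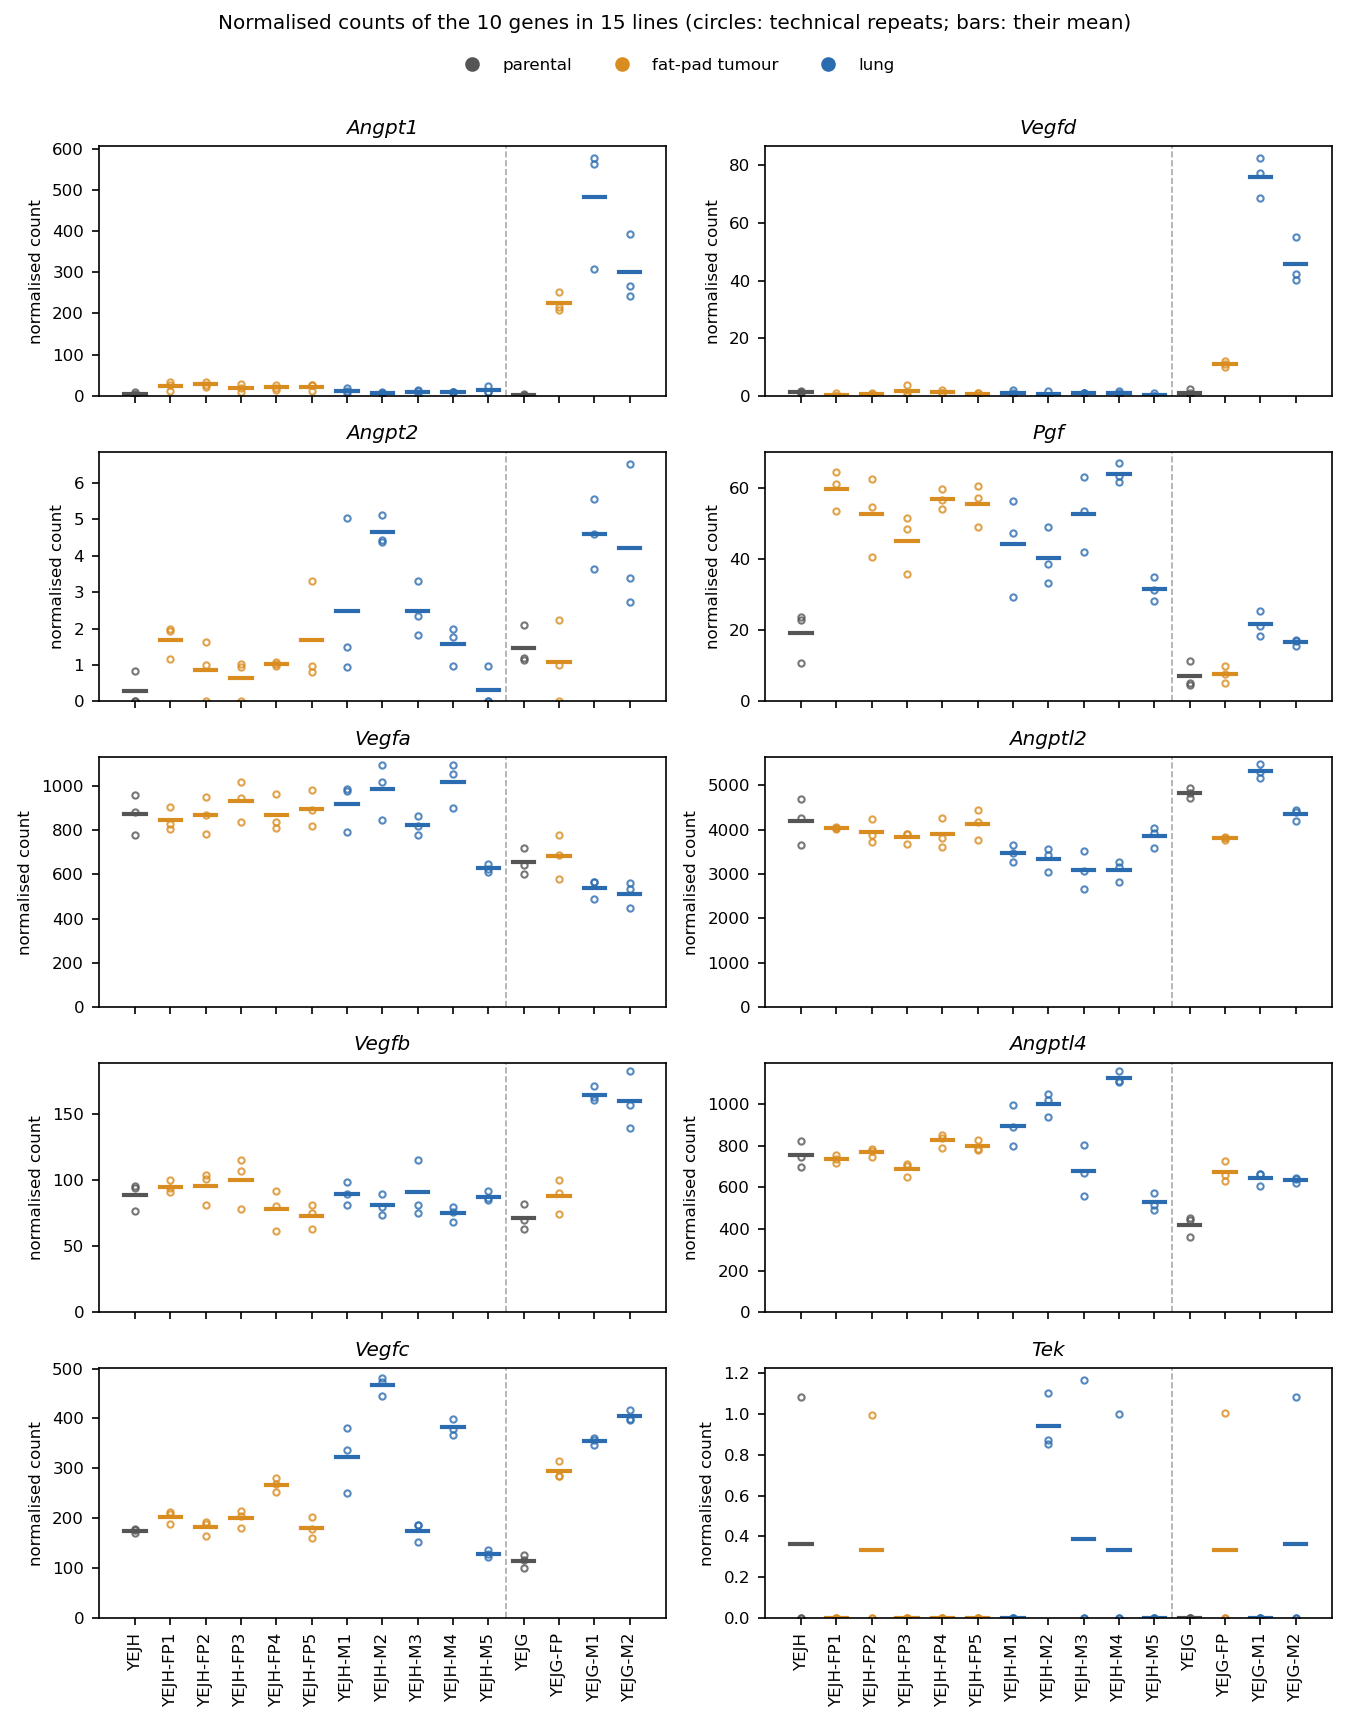
Normalised count (y axis, linear, from 0) of each of the 10 genes in the 15 cell lines (x axis), with circles for the 3 technical repeats, bars for their mean and colours for the site of origin. *Angpt1* and *Vegfd* stand up only in the 3 YEJG-derived lines right of the dashed line, *Pgf* is lower there than in the YEJH-derived lines, and *Tek* lies at 0 in 36 of 45 libraries.

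*Angpt1*, on chromosome 15 from 42288058 to 42540417 on the reverse strand in GRCm39, encodes the activating ligand of TEK. Normalised counts are reads scaled by the TMM factor of edgeR to the mean library size, and the spread given for a line is the SD of its 3 technical repeats. *Angpt1* was barely detected in the parental lines, at 5.74 ± 3.83 normalised counts in YEJH and 2.54 ± 2.62 in YEJG, where the 3 repeats held 2, 0 and 5 reads. It reached 226 ± 22.7 normalised counts in YEJG-FP. Line YEJG-M1 held 482 ± 151 and line YEJG-M2 299 ± 80.8. All 9 libraries of the YEJG-derived lines held 188 reads or more, whereas no library of a YEJH line held more than 34. Within YEJG-M1 the repeats gave 308, 576 and 563 normalised counts, and the lowest is the library whose name gives YEJH-M1. That library held 254 *Angpt1* reads, against 4 to 19 in the libraries of YEJH-M1. Repeat 1 was also the lowest in YEJG-M2, at 241 normalised counts.

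Among YEJH-derived lines *Angpt1* was lower in lung than in fat-pad lines. The fat-pad lines YEJH-FP1 to YEJH-FP5 held 23.8, 27.7, 18.6, 20.5 and 21.3 normalised counts, a mean of 22.4 ± 3.51 (SD, n = 5 lines). The lung lines YEJH-M1 to YEJH-M5 held 12.1, 6.99, 10.2, 9.45 and 14.5, a mean of 10.7 ± 2.83 (SD, n = 5 lines). The highest lung line lay below the lowest fat-pad line, a separation in that direction seen in 1.18% of the genes tested. The log2 fold change of lung against fat-pad lines was -1.08 (SE 0.21), which did not pass over all genes (edgeR adjusted p = 0.17, by its quasi-likelihood test adjusted after Benjamini and Hochberg). The difference was 2.11-fold and the SD of technical repeats of *Angpt1* in these lines was larger than that between lines, with ratios of line SD to repeat SD of 0.439 in fat-pad and 0.499 in lung lines. With DESeq2 in place of edgeR the same change passed (adjusted p = 0.00167).

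The site contrast of *Angpt1* ran the other way in YEJG. Both YEJG lung lines were above YEJG-FP, with a log2 fold change of 0.82 (SE 0.339), which did not pass (edgeR adjusted p = 0.111). Without the library of YEJG-M1 repeat 1 it was 0.94 (edgeR adjusted p = 0.0967). The difference between the site contrasts of YEJG and YEJH was 1.90 on the log2 scale (SE 0.407) and passed (edgeR adjusted p = 0.00858), and it was 2.02 without that library (edgeR adjusted p = 0.00972). Both site tests that involve YEJG use the lines whose level chose the gene, although the choice rested on origin and not on site. Within library runs the difference was 1.59 in run A (edgeR adjusted p = 0.107) and 2.08 in run B (edgeR adjusted p = 0.00585). Against its parental line, *Angpt1* in the YEJH-derived lines had a log2 fold change of 1.32 (SE 0.422, edgeR adjusted p = 0.12). In the YEJG-derived lines the change against the parental line was 6.81 (SE 0.541), given with no test because these lines chose the gene. The 7 reads of the parental line against 3106 in its derivatives gave a ratio of 136, with a 95% counting interval of 66.1 to 340 that covers counting error only. Between derived lines of both origins the log2 fold change was 4.26 (SE 0.171), rank 30 of 15041 genes by height in the YEJG-derived lines. As RNA came from whole cultures, fewer cells expressing a gene and less RNA per cell cannot be told apart.

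**Figure D2:**
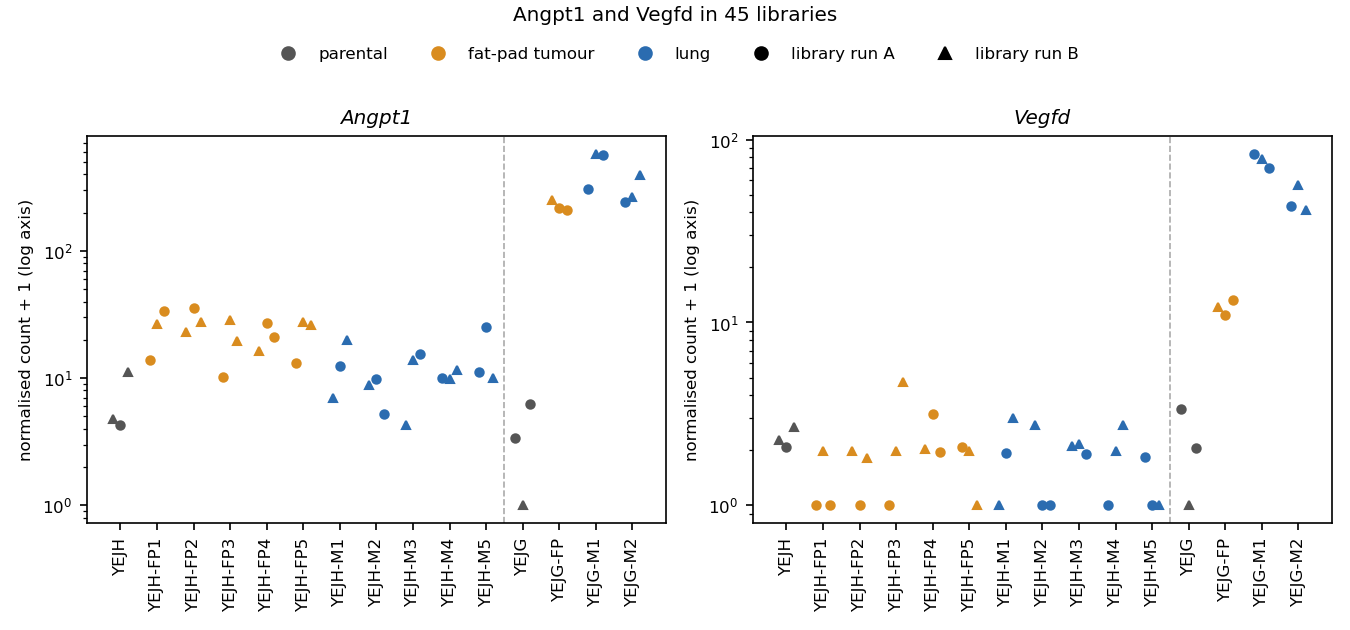
Normalised count + 1 on a log axis (y) of *Angpt1* and *Vegfd* in each of the 45 libraries, by line (x axis), with circles for run A and triangles for run B. Both runs show the same order, with all 9 libraries of the YEJG-derived lines above every other library for both genes, and YEJG-FP below the YEJG lung lines for *Vegfd*.

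A lncRNA on the opposite strand, *Gm17473*, shares 815 exonic bases with *Angpt1*, and the library kit does not mark strand. It held at most 4 reads in any library, and how reads in the shared bases were counted was not tested. The 5 genes whose log2 CPM over the 15 lines was most like that of *Angpt1* were *Col6a1*, a collagen VI chain, with Pearson's r of 0.975, *Kcnj2*, a potassium channel, with 0.965, *Plekhh2* with 0.964, *Zcchc24* with 0.959 and *Zeb1*, a repressor of epithelial genes, with 0.95. The 15 points share parental origin and are not independent, so no p is given. *Zeb1* held 267 normalised counts in YEJG-FP, 726 in YEJG-M1 and 740.0 in YEJG-M2, against 71.9 to 146 in YEJH-derived lines and 29.0 in the YEJG parental line. *Angpt1* and *Zeb1* thus shared the order parental, fat-pad, lung within YEJG, although *Angpt1* was highest in YEJG-M1 and *Zeb1* in YEJG-M2.

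**Figure D3:**
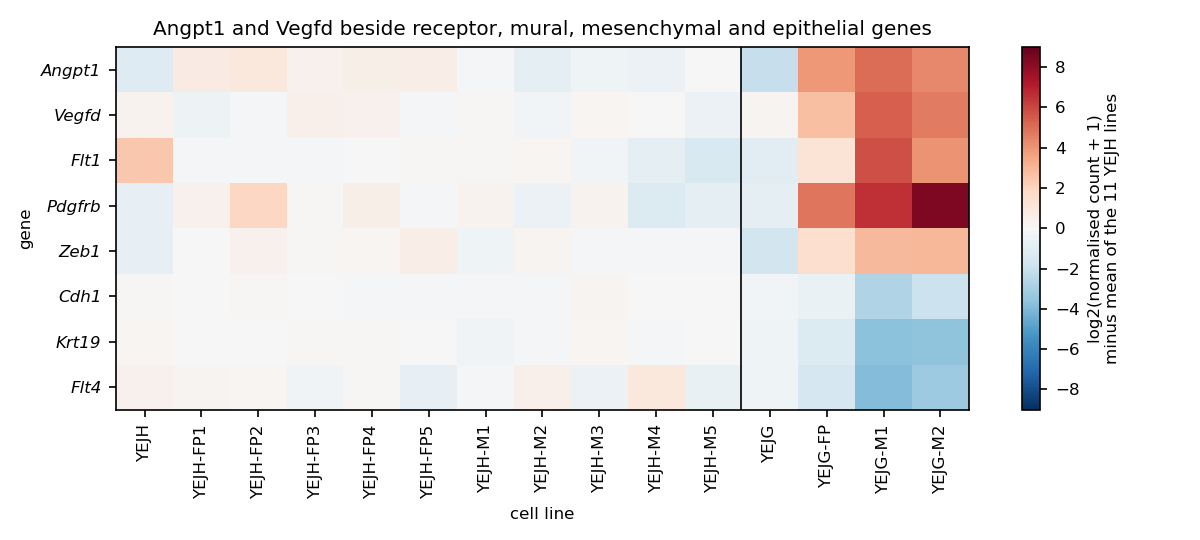
Colour gives log2(normalised count + 1) minus the mean of the 11 YEJH lines, for 8 genes (rows) in 15 lines (columns). *Angpt1*, *Vegfd*, *Flt1*, *Pdgfrb* and *Zeb1* are raised in the YEJG-derived lines, and *Cdh1*, *Krt19* and *Flt4* are lowered there, most in the YEJG lung lines.

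*Angpt2*, the context-dependent ligand of TEK, was counted at 0 to 6 reads per library, 88 reads in all. The YEJG lung lines averaged 4.59 and 4.21 normalised counts and YEJH-M2 4.64, while the other lines held 0.282 to 2.49. These levels overlapped between groups and are too low for a test. *Angpt2* also shares 3387 of its 4792 exonic bases with *Mcph1*, which runs on the opposite strand and held 603 to 1138 reads per library. Reads in the shared bases cannot be assigned to either gene without strand, and how the deposited counts treat them was not tested. The counts and RPKM of *Angpt2* may therefore misstate its level. *Tek*, the receptor, was detected by 9 reads in all, at most 1 per library. Of these, 3 fell in YEJH-M2, 1 in each of its repeats.

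*Vegfd*, a ligand for lymphatic endothelium on chromosome X from 163156240 to 163185646 in GRCm39, followed *Angpt1*. It was all but absent from the YEJH lines, at 0 to 4 reads per library, and the YEJG parental line held 2, 0 and 1 reads. YEJG-FP held 11.1 ± 1.09 normalised counts, line YEJG-M1 76.0 ± 7.03 and YEJG-M2 45.9 ± 8.11. No library of the YEJG-derived lines held fewer than 10 reads. Both YEJG lung lines lay above YEJG-FP in each repeat. The log2 fold change of the YEJG lung lines against YEJG-FP was 2.45 (SE 0.482), 2.44 in run A, 2.46 in run B and 2.42 without the library of YEJG-M1 repeat 1. In YEJH lines it was -0.21 (SE 0.483), and the contrasts of the origins differed by 2.67 (SE 0.684), with no test. Against the YEJG parental line the derived lines were at a log2 fold change of 4.47 (SE 0.662). From reads alone the ratio was 41.6, with a 95% counting interval of 14.1 to 203, since the parental line held 3 reads.

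The 250 bases before the start of *Vegfd*, of *Vegfb* and of the more upstream start of *Pgf* are shown. These members had higher levels in both YEJG lung lines than in YEJG-FP, tested for *Vegfb* and *Pgf* only. They are not the only members with that order, and *Vegfc* and *Angptl2* are given after the sequences. The sequences are those of RefSeq on GRCm38.p6, 5′ to 3′ on the strand of the gene, and 7 of the 10 members had an entry. Capitals mark matches on either strand to the motif CACCTG (an E-box that ZEB1 binds) and to a hypoxia response element core, whose letters were searched as ACGTG and, in a second form, as GCGTG. None of the matches shown overlap. The E-box was found in 17.2% and a hypoxia core in 38.6% of 32851 promoters of the same length. *Vegfd* lies at chrX:164373272-164373521 (+), *Vegfb* at chr19:6987652-6987901 (-) and *Pgf* at chr12:85177314-85177563 (-).
Vegfd: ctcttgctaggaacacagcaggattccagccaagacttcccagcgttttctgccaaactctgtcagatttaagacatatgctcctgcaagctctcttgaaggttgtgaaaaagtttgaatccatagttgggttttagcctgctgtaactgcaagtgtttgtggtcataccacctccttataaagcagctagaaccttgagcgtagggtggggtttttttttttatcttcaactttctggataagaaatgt
Vegfb: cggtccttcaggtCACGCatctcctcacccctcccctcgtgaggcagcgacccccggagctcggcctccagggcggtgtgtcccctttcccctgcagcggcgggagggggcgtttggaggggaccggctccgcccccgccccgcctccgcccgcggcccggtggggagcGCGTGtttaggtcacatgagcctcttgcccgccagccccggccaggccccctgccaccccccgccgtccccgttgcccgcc
Pgf: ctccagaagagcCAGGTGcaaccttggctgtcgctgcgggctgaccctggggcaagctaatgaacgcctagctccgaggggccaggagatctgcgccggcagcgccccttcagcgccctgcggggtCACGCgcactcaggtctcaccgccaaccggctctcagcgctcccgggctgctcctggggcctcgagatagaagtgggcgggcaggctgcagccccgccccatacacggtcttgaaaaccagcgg
*Vegfd* held no match to either motif in this window, which says only that these letters are not in it. *Vegfb* held 2 hypoxia cores, 237 and 81 bases before the start, and *Pgf* held 1 E-box 238 bases and 1 hypoxia core 124 bases before this start. The other *Pgf* start in the table (chr12:85175983-85176232) held no match. *Vegfc* and *Angptl2* were also higher in both YEJG lung lines than in YEJG-FP, without passing. Their windows, not shown, held no match to either motif. *Vegfa* was lower in both YEJG lung lines than in YEJG-FP, without passing. Its window at chr17:46025164-46025413, not shown, held 2 E-boxes, 1 ACGTG and 1 GCGTG, and its other window held no match. The *Tek* window held no match. *Angpt1*, *Angpt2* and *Angptl4* had no entry, so no window of these genes was searched. GC content was 42.4% in *Vegfd*, 76.4% in *Vegfb* and 68.4% in *Pgf*.

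*Vegfb*, a FLT1 ligand linked to fatty acid handling, was steady in every line but the YEJG lung lines. It held 71.6 normalised counts in the YEJG parental line, 88.1 in YEJG-FP, 164 in YEJG-M1 and 159 in YEJG-M2. The YEJH lines ran from 73.0 to 100.2, so the YEJG lung lines stood above every other line. The change from YEJG-FP to the YEJG lung lines was 0.90 on the log2 scale (SE 0.198, edgeR adjusted p = 0.00798), a 1.86-fold rise. In YEJH lines it was -0.07 (SE 0.0994, edgeR adjusted p = 0.923). The difference of 0.96 (SE 0.22) passed (edgeR adjusted p = 0.0118). It was 0.85 to 1.05 under the alternatives tried and passed in each. No alternative could leave out YEJG-FP, the only fat-pad line of YEJG, so all of them rest on that line. The same holds for the YEJG site contrast of every other member. Against the YEJG parental line *Vegfb* was 1.65-fold higher in the derived lines (log2 0.72, SE 0.192, edgeR adjusted p = 0.0195), and in run A alone this did not pass (0.58, edgeR adjusted p = 0.0724).

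*Pgf*, placental growth factor, was the member whose levels in the YEJG-derived lines lay below those of all YEJH-derived lines. They held 7.63 normalised counts in YEJG-FP, 21.7 in YEJG-M1 and 16.6 in YEJG-M2, against 31.5 to 64.0 in the 10 YEJH-derived lines, with no overlap. Both parental lines were low, at 19.1 ± 7.18 in YEJH and 7.15 ± 3.75 in YEJG. The YEJH-derived lines were above their parental line by a log2 fold change of 1.37 (SE 0.337), at the edge of the threshold (edgeR adjusted p = 0.0501), and this passed in 12 of 26 alternatives. In the YEJG-derived lines the change against the parental line was 0.74 (SE 0.419, edgeR adjusted p = 0.258), and in run B alone it was -0.25. From YEJG-FP to the YEJG lung lines *Pgf* rose by 1.31 on the log2 scale (SE 0.414, edgeR adjusted p = 0.0437), on 22 reads in the 3 libraries of YEJG-FP. Without the library of YEJG-M1 repeat 1 this was 1.24 and did not pass (edgeR adjusted p = 0.0534), nor did it without line YEJG-M1 (1.12, edgeR adjusted p = 0.149), and it was lost in 12 of 26 alternatives in all. The difference from the YEJH contrast, 1.55 (SE 0.449, edgeR adjusted p = 0.0362), was lost in 8 of 26 alternatives, among them run A (1.52, edgeR adjusted p = 0.111) and without line YEJG-M1 (1.36, edgeR adjusted p = 0.115).

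*Vegfa* is the main ligand of vessel growth and a classic hypoxia target. By the mean of each origin it was the most abundant VEGF ligand per exon length, at 14.5 RPKM in YEJH-derived and 9.54 RPKM in YEJG-derived lines. In YEJG-M2 *Vegfc* was higher, at 10.02 RPKM against 8.46 RPKM for *Vegfa*. In YEJG-M1 *Vegfc* was at 8.80 RPKM and *Vegfa* at 8.90 RPKM. The YEJH fat-pad lines held 845 to 933 normalised counts, a mean of 883 ± 33.8 (SD, n = 5 lines). The YEJH lung lines held 919, 987, 822, 1016 and 628 in YEJH-M1 to YEJH-M5, a mean of 874 ± 157 (SD, n = 5 lines), so their mean differed little while their spread was wider. The log2 fold change between sites was -0.02 (SE 0.105, edgeR adjusted p = 0.984). YEJG lines held 655 in the parental line, 682 in YEJG-FP, 540 in YEJG-M1 and 513 in YEJG-M2, all below each YEJH line other than YEJH-M5, which fell between them. The fall from YEJG-FP to the YEJG lung lines, -0.38 (SE 0.203), did not pass (edgeR adjusted p = 0.219). Against the parental lines *Vegfa* did not pass in either origin, at 0.02 (SE 0.175, edgeR adjusted p = 0.968) in YEJH and -0.14 (SE 0.196, edgeR adjusted p = 0.699) in YEJG. The genes most like *Vegfa* over the 15 lines were *Orai1*, a calcium channel subunit, with r of 0.964, *Nfe2l3*, *Has2*, *Socs3* and *Atp2b1*, with r of 0.935 to 0.957.

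*Vegfc*, the other lymphatic ligand, had the widest spread between YEJH lung lines relative to its technical repeats of the tested members. YEJH-M1 held 322 ± 66.6 normalised counts, YEJH-M2 467 ± 18.5, YEJH-M3 175 ± 19.4, YEJH-M4 382 ± 16.4 and YEJH-M5 129 ± 7.42. The highest line was 3.62 times the lowest, and the SD between lines was 4.26 times that of repeats. The fat-pad lines held 203, 182, 200.3, 267 and 181 in YEJH-FP1 to YEJH-FP5, so 3 lung lines lay above all of them and 2 below. The site difference of 0.50 on the log2 scale (SE 0.292) did not pass (edgeR adjusted p = 0.807). In YEJG, *Vegfc* was at 114 ± 13.5 in the parental line and at 295, 355 and 404 in YEJG-FP, YEJG-M1 and YEJG-M2. This rise of 2.90-fold (log2 1.54, SE 0.601) did not pass with lines as samples (edgeR adjusted p = 0.0959), although no library of a derived line came down to the parental range of 84 to 111 reads. It passed with DESeq2 (adjusted p = 0.018) and without line YEJH-M5 in the fit (edgeR adjusted p = 0.0297). Against YEJG-FP the YEJG lung lines changed by 0.37 (SE 0.568, edgeR adjusted p = 0.705).

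*Angptl2* does not bind TEK despite its name. The YEJH fat-pad lines held 3821 to 4128 normalised counts and the lung lines 3085 to 3852, with only YEJH-M5 inside the fat-pad range. The log2 fold change was -0.24 (SE 0.0667, edgeR adjusted p = 0.356). In YEJG the parental line held 4828, YEJG-FP 3803, YEJG-M1 5313 and YEJG-M2 4340.5 normalised counts. The YEJG site change of 0.35 (SE 0.131) did not pass (edgeR adjusted p = 0.0857), and the difference between origins, 0.59 (SE 0.148), passed (edgeR adjusted p = 0.0183) except without line YEJG-M1 (0.44, edgeR adjusted p = 0.0706). *Angptl2* thus shared with *Angpt1* a lower mean in YEJH lung lines and a higher one in YEJG lung lines.

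*Angptl4*, an inhibitor of lipoprotein lipase induced by hypoxia and by PPAR factors, held 687 to 825 normalised counts in the YEJH fat-pad lines. In YEJH-M1 to YEJH-M5 it was 893, 1000.4, 676, 1124 and 528, a wider range at both ends. The site difference was 0.14 (SE 0.165, edgeR adjusted p = 0.898). The YEJG parental line was the lowest of all 15 at 419 ± 49.0, and its derivatives held 672, 644 and 636. That change of 0.64 (SE 0.321) did not pass (edgeR adjusted p = 0.199).

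In the 10 YEJH-derived lines *Vegfc*, *Angptl4* and *Vegfa* varied together, in log2 CPM. Pearson's r was 0.91 for *Angptl4* with *Vegfc*, 0.88 for *Angptl4* with *Vegfa* and 0.80 for *Vegfa* with *Vegfc*. YEJH-M4 and YEJH-M2 were the highest lines for each of these genes, and YEJH-M5 was the lowest. *Angpt1* and *Angptl2* had r of 0.86 over the same lines, and *Angpt1* with *Vegfc* had -0.59. These lines share a parental line and 5 of them a site, so the values are a description with no p.

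**Figure D4:**
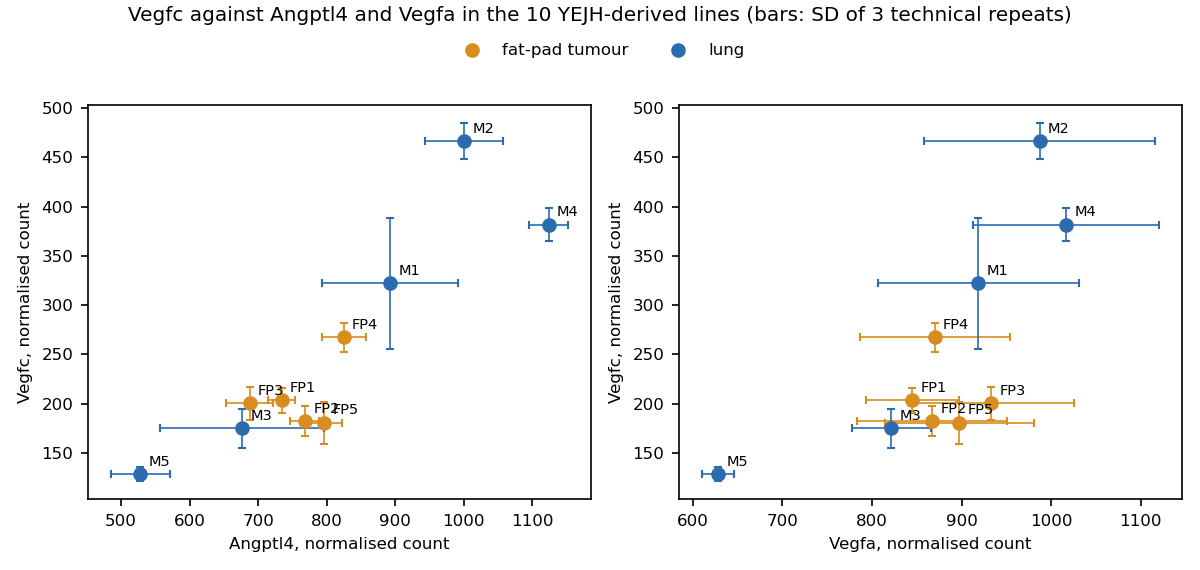
Normalised counts of *Vegfc* (y axes) against *Angptl4* (left x axis) and *Vegfa* (right x axis) in the 10 YEJH-derived lines, as the mean with the SD of 3 technical repeats. The lung lines span both ends, from YEJH-M5 at 129 *Vegfc* counts to YEJH-M2 at 467, and the fat-pad lines cluster between 181 and 267.

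Counted over comparisons, none of the 7 tested members passed between YEJH lung and fat-pad lines, where 0.0133% of all genes tested passed (2 of 15041, with 1030 at an unadjusted p under 0.05). Of the members, *Angpt1* and *Angptl2* had an unadjusted p under 0.05 there, 0.00025 and 0.00342 from edgeR. In YEJG, *Vegfb* and *Pgf* of the 7 were higher in lung lines than in YEJG-FP and none was lower, where 19.7% of all genes passed and 9.6% were higher. The difference between origins passed for *Angpt1*, *Angptl2*, *Vegfb* and *Pgf*, all more positive in YEJG, against 15.7% of all genes and 7.74% in that direction. These counts leave out *Vegfd*, and they hold *Angpt1*, whose level in the same YEJG-derived lines, though not its site contrast, chose the set. Against the parental line, none of the 7 passed in YEJH (3.16% of all genes), and *Vegfb* was higher in YEJG among the 6 members tested there (20.2% of all genes passed and 9.71% were higher). The comparisons within YEJG share the line YEJG-FP and are not independent of each other. Line means of YEJG-derived and YEJH-derived lines did not overlap for *Angpt1*, *Vegfd* and *Pgf*, as for 25.1% of all genes (12% higher and 13.1% lower in YEJG-derived lines), from which nothing is read because that contrast chose the set.

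Without the library of YEJG-M1 repeat 1, the log2 fold change between YEJG sites was 0.90 for *Vegfb* (edgeR adjusted p = 0.00831), 0.33 for *Angptl2* (edgeR adjusted p = 0.0926), -0.40 for *Vegfa* (edgeR adjusted p = 0.2), 0.37 for *Vegfc* and -0.08 for *Angptl4*. The difference between origins was then 0.97 for *Vegfb* (edgeR adjusted p = 0.0123), 0.58 for *Angptl2* (edgeR adjusted p = 0.0189), 1.48 for *Pgf* (edgeR adjusted p = 0.0435) and 2.63 for *Vegfd*, which was not tested. Against the YEJG parental line it was 0.72 for *Vegfb* (edgeR adjusted p = 0.0197), 1.54 for *Vegfc* (edgeR adjusted p = 0.0949), 0.63 for *Angptl4*, -0.15 for *Vegfa*, 0.71 for *Pgf*, 4.45 for *Vegfd* and 6.87 for *Angpt1*. Of the calls of tested members in these comparisons, that of *Pgf* between YEJG sites was the one lost. Among the other genes named for the YEJG comparisons, *Cxcl10* between sites (1.46, edgeR adjusted p = 0.0501) and *Egln1* (0.28, edgeR adjusted p = 0.0646) were lost.

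**Figure D5:**
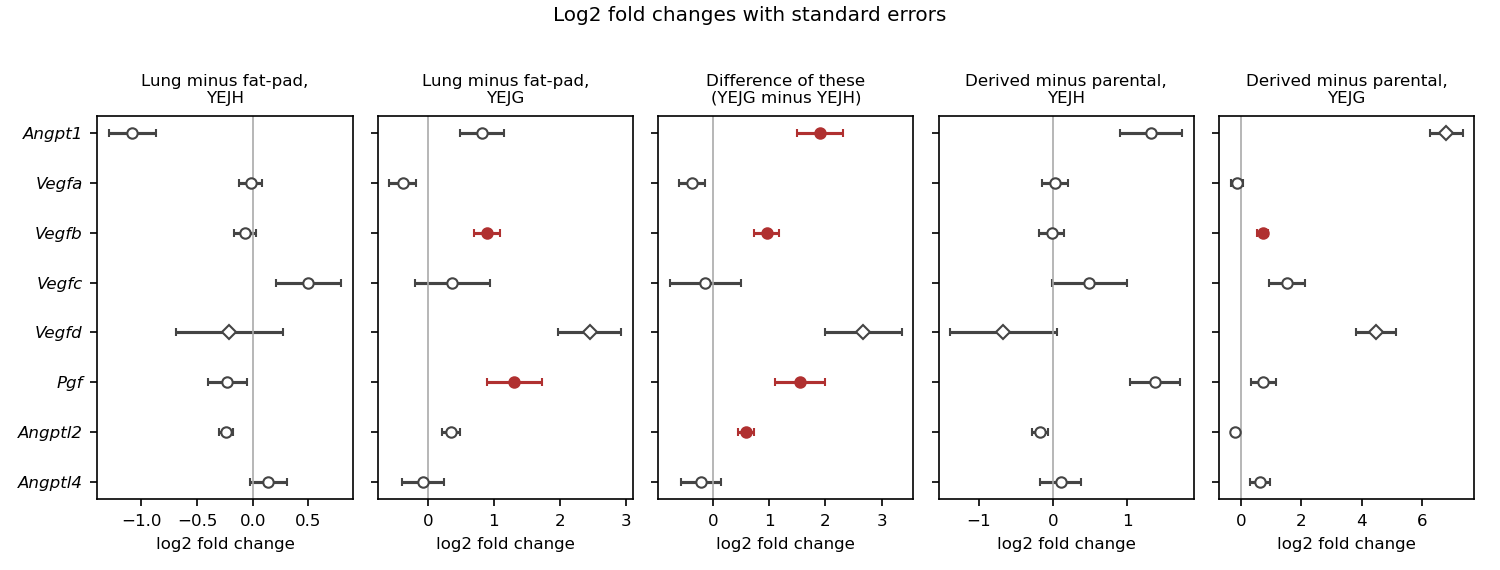
Log2 fold change (x axes, each panel on its own scale) with its standard error for the 8 members that met the read filter (y axis) in 5 comparisons. Filled red circles passed an edgeR adjusted p of 0.05, open circles did not, and open diamonds were not tested (*Vegfd* throughout, and *Angpt1* in the YEJG-derived against parental comparison). *Vegfb* and *Pgf* are filled in the YEJG site panel, and no circle is filled in either YEJH panel.

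The receptors of these ligands were described from a list of 5 genes, of which 4 were tested. *Flt1*, which binds VEGFA, VEGFB and PGF, held 32.6 normalised counts in YEJG-FP, 788 in YEJG-M1 and 226 in YEJG-M2, against 4.36 to 15.2 in YEJH-derived lines. *Flt1* held 73.9 in the YEJH parental line, above YEJG-FP, and 6.07 in the YEJG parental line. Against the YEJG parental line *Flt1* was at 4.41 on the log2 scale in the derived lines. Its rise from YEJG-FP to the YEJG lung lines was 3.97 on the log2 scale (edgeR adjusted p = 0.00345). In the YEJH-derived lines *Flt1* was lower than in their parental line, by -2.68 (edgeR adjusted p = 0.0113). *Flt4*, the receptor of VEGFC and VEGFD, fell against the YEJG parental line by 2.33 on the log2 scale (edgeR adjusted p = 0.0194), from 39.6 normalised counts to 17.6 in YEJG-FP, 2.55 in YEJG-M1 and 4.36 in YEJG-M2. The co-receptor *Nrp1* was higher than in the YEJG parental line (1.04, edgeR adjusted p = 0.00877). *Kdr*, the main receptor of VEGFA, held 0 to 4 reads per line. In the YEJG site comparison, where 19.7% of all genes passed, 1 of the 4 receptors passed, with a list median of 0.29 against -0.02 over all genes. Of 6 TEK pathway partners 2 were tested, and *Grb14*, an adaptor, was lower in YEJG lung lines (-1.23, edgeR adjusted p = 0.0146).

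Among 8 hypoxia regulators, *Egln3*, *Egln1* and *Hif1a* were higher in YEJG lung lines than in YEJG-FP and none was lower, in the comparison where 9.6% of all genes were higher and 10.1% lower. *Egln3*, a prolyl hydroxylase that marks HIF for decay and is itself induced by it, rose by 1.82 on the log2 scale (edgeR adjusted p = 0.0391). Of 11 hypoxia targets tested beside *Vegfa* and *Angptl4*, 4 were higher and 2 lower, again beside 9.6% and 10.1% of all genes, with *Bnip3* (1.98, edgeR adjusted p = 0.0017), *Pdk1* (1.97, edgeR adjusted p = 0.00114) and *P4ha1* (1.11, edgeR adjusted p = 0.000535) the largest. *Vegfa* and *Angptl4* did not pass in this comparison. The list median was 0.35 against -0.02 over all genes. Among 14 other angiogenic ligands tested, 1 was higher (*Apln*) and 3 were lower in YEJG lung lines, beside 9.6% and 10.1% of all genes. Of the 3, *Pdgfd* and *Hgf* changed the most. Of 8 angiogenesis inhibitors tested 2 were higher, *Col18a1* and *Cxcl10*, and 3 lower, with *Adamts1* the largest, where 19.7% of all genes passed. In the YEJH site comparison 0 genes of these lists passed.

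Some genes of other cell types and states also differed between the YEJG lung lines and YEJG-FP. The summed level of 8 mesenchymal transition genes was 4124 to 5204 CPM in the YEJG lung lines, 1597 CPM in YEJG-FP and 911 to 1738 CPM in YEJH-derived lines. In the YEJG lung lines it came largely from *Vim*, at 58768 and 40658 normalised counts in YEJG-M1 and YEJG-M2. Of the 8 genes *Vim*, *Zeb1* and *Zeb2* were higher there than in YEJG-FP and none was lower, beside 9.6% and 10.1% of all genes. Of 12 mammary epithelial genes 9 were tested, and 5 were lower and 1 higher in the YEJG lung lines than in YEJG-FP, beside 10.1% and 9.6% of all genes. The sum of 9 mural cell genes was 21.1 to 74.8 CPM in the YEJG lung lines and 6.93 CPM in YEJG-FP, against 0.963 to 5.39 CPM in YEJH-derived lines. It came largely from *Pdgfrb*, at 286 and 1030.4 normalised counts in YEJG-M1 and YEJG-M2, while 3 of the 9 genes were at 0 in both lines. The sum of 10 fibroblast genes was 17.9 to 60.7 CPM there and 8.28 CPM in YEJG-FP, with 2 genes at 0 in the lung lines. Of the 5 fibroblast genes tested *Pdgfra* and *Col1a1* were higher in the YEJG lung lines than in YEJG-FP, beside 9.6% of all genes. Leukocyte genes summed to 4.53 to 9.54 CPM in the YEJG lung lines and 2.81 CPM in YEJG-FP. In YEJH the sums were 4.11 to 6.38 CPM in fat-pad and 6.82 to 9.15 CPM in lung lines. Of 3 tested 1, *Csf1r*, was higher in the YEJG lung lines than in YEJG-FP, beside 9.6% of all genes. In YEJG-derived against YEJH-derived lines *Csf1r* was at -1.48 on the log2 scale, with no test. Endothelial genes summed to 6.43 to 6.74 CPM in the YEJG lung lines, within the range of the other lines. The part of these genes in the levels of the members was not tested.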

How the data were processed

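RNA of 15 lines was sequenced as 45 libraries. The values deposited by the authors are read counts for each gene, not normalised; per the labels the kit was Illumina TruSeq RNA Library Prep v2 on polyA RNA, and the submitters' processing notes list FastQC, HISAT2, SAMtools 1.2 and HTSeq, and the build GRCh38, whereas the gene identifiers are of mouse. Of the identifiers, 92.6% matched GENCODE on GRCm39, used for names, positions and exon lengths. Rows of reads not on a gene (5, 31.6% to 43.3% of reads) were left out.

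Counts of the 3 repeats were summed per line and fitted with edgeR 4.0.16 (R 4.3.3; TMM, quasi-likelihood test, 6 groups of origin and site, Benjamini-Hochberg over the 15041 genes with a mean of at least 10 reads per line, threshold 0.05), after a test on simulated data. Alternatives used DESeq2 1.42.0, limma 3.58.1, other filters and scaling, single runs, and lines, repeats or libraries left out. SE is the log2 fold change over the root of F. Correlations used log2 CPM with a prior count of 2. All members were named (*Vegfd* with no test, because it met the read filter only through lines where it was high), and from each other list at most the 3 passing genes with the largest change per comparison. *Kdr*, *Cdh1* and *Thbs2* were picked after their values were seen. The members and lists were chosen with earlier results of these data known. Lines with the same number were checked for pairing, and their deviations correlated at -0.153 to 0.029. The labels do not say whether a number marks a mouse, and this check cannot decide it. The main fit did not pair lines by number, and a fit with the line number as block is given below.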

Additional observations from a re-analysis of the deposited data

Results flagged for a closer look

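In groups of 5 lines, 8 members in 2 groups were examined for a line that stood apart, and chance alone flags about 1 in 20 such groups. *Vegfc* in YEJH-FP4, at 267 normalised counts, stood above the other 4 fat-pad lines, with a gap to the next line of 0.739 of the whole range, above Dixon's critical value of 0.71. Its 3 repeats gave 252, 269.6 and 281 normalised counts, and *Angptl4* was also highest among fat-pad lines in YEJH-FP4.

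The contrast of lung with fat-pad lines differed between YEJG and YEJH, by the interaction test of edgeR, for 4 members. The difference on the log2 scale, YEJG minus YEJH, was 1.90 for *Angpt1* (edgeR adjusted p = 0.00858), 0.59 for *Angptl2* (edgeR adjusted p = 0.0183), 0.96 for *Vegfb* (edgeR adjusted p = 0.0118) and 1.55 for *Pgf* (edgeR adjusted p = 0.0362). The YEJG side of each rests on 2 lung lines and 1 fat-pad line, whose spread was taken from all lines. For *Angpt1* these lines also chose the set, by origin and not by site.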

How the results depend on the processing

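Each comparison was repeated under up to 31 other settings. For members, 1192 values kept their direction and, where tested, their side of the threshold, 23 no longer passed, 32 newly passed, 8 untested values moved by over 1 SD and 23 changed sign. The 2 genes passing between YEJH sites became 82 with DESeq2's test, 4 with no filter, 1 in run A, 1 in run B, 344 with libraries apart in limma and run as covariate, and 1 without the library of YEJG-M1 repeat 1. They became 7 with the 10 YEJH-derived lines alone, 5 with all 13 derived lines and origin as covariate and 0 with no covariate. With the line number as replicate block 0 genes passed (1069 at an unadjusted p under 0.05), and *Angpt1* was at -1.09 (adjusted p = 0.353). With the technical repeat number as replicate block in limma 329 passed. The difference between origins rose to 3554 genes with libraries apart and run as covariate. The 476 genes of the YEJH-derived against parental comparison became 1008 with DESeq2's test, 279 in run A, 282 in run B, and 1421 and 1458 with libraries apart, with run as covariate and repeat number as replicate block. Leaving out a line or repeat gave 0 to 41 genes between YEJH sites, 1991 to 3386 between YEJG sites, 1660 to 2825 for their difference, 212 to 1087 and 2236 to 3412 against the YEJH and YEJG parental lines, and 5568 to 6826 between origins. The cause of these shifts was not tested.

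Signs changed in the following fits. Between YEJH sites with 13 derived lines and no covariate, *Angpt1* was at 1.11, *Vegfb* at 0.27 and *Vegfd* at 2.77; with origin as covariate *Vegfb* was at 0.12, *Vegfd* at 1.10 and *Pgf* at 0. In run A *Angptl4* between YEJG sites was at 0.01, and in run B *Vegfb* was at 0.03 against the YEJH parental line and *Pgf* at -0.25 against the YEJG one. With a line or repeat left out, the YEJH site change ran from -0.08 to 0.08 for *Vegfa*, -0.21 to 0.02 for *Vegfb* and -0.41 to 0.09 for *Vegfd*, the difference between origins from -0.3 to 0.1 for *Vegfc*, and the change against the YEJH parental line from 0 to 0.07 for *Vegfa* and -0.15 to 0.07 for *Vegfb*. Depth limits *Angpt2*, *Tek* and, outside YEJG-derived lines, *Vegfd*, and the bases shared with *Mcph1* also limit *Angpt2*.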

Other observations

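The value of some members followed the technical repeat number across lines. *Vegfa* was lowest in repeat 3 in 14 of 15 lines, *Angptl2* in 12 and *Angptl4* in 9. *Angpt1* was lowest in repeat 1 in 9 of 15 lines, and the median ratio of repeat 1 to the mean of the other repeats was 0.607. *Pgf* was lowest in repeat 2 in 10 lines.

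*Thbs2*, an angiogenesis inhibitor outside the rule for named genes and picked after its values were seen, held 693 reads in YEJG-M1 and 1 to 18 in every other line. The YEJG lung lines, alike in *Vegfb*, therefore differed in this gene.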
